A study of Mus musculus with 32 samples.

Results

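A set of 32 genes of the neural crest and of the Schwann cell lineage, the lineage that ensheathes peripheral nerves, was followed through 32 primary mouse melanomas. Members were the rows of the count and TPM tables whose Ensembl identifiers map to the member symbols in the GENCODE mouse annotation. All 32 symbols were found, among 50600 genes in the tables. Polyadenylated RNA was sequenced from tumours of C57BL/6J mice, with 8 tumours in each of 4 groups that cross genotype and sex. All mice carried NRAS Q61K driven by the tyrosinase promoter, which is active in melanocytes, together with 1 deleted copy of Cdkn2a and both copies of Cdh1, the E-cadherin gene, flanked by loxP sites. Mice of the Ecad group had no Cre, and mice of the ΔEcad group carried, per the study's methods, a Cre recombinase that is also driven by the tyrosinase promoter. The labels of the ΔEcad tumours write Tyr::NRAS/° in the position where that Cre would stand. Tumours were taken at primary sites when they had grown to about 1 cubic centimetre, and ages of the mice are not given.

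Neural crest cells leave the dorsal neural tube of the embryo and give rise to melanocytes, Schwann cells, satellite glia and peripheral neurons. Part of the melanocytes arise from Schwann cell precursors along nerves, and both lineages keep the regulator Sox10 in common. Melanoma cells can lose pigment genes and take up a neural crest-like state marked by NGFR, while nerves that run through skin bring in Schwann cells with their own myelin RNA, so a bulk tumour can hold these genes from either source.

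Total counts per tumour were between 24036333 and 63923086 (median 34684496). The melanocytic markers Dct, Tyr, Tyrp1, Mlana, Pmel, Trpm1, Slc45a2, Oca2 and Gpr143 summed to between 5545 and 74929 TPM (a level scaled to gene length and library total) in 31 tumours, and to 19.1 TPM in ΔEcad male 7. That library held 0.49 TPM of Sox10, against a median of 913, and its neuron markers summed to 337 TPM, against a median of 1.42. The library labelled ΔEcad male 2 had 0 TPM over 4 Y-linked genes and 6.41 TPM of Xist. Xist was at no more than 0.20 TPM in Ecad males and at no less than 8.55 TPM in libraries labelled female. ΔEcad male 2 thus goes against its sex label and its sex is in doubt, but it was kept under that label. ΔEcad female 1 had 1.20 TPM of the Y-linked genes, with Xist at 101 TPM, and ΔEcad female 3 had 0 TPM of haemoglobin. Cdh1 spanned 25.0 to 282 TPM in Ecad males against 0.79 to 65.2 TPM in ΔEcad males. It spanned 2.16 to 151 TPM in Ecad females against 0.17 to 143 TPM in ΔEcad females, so its bulk level overlapped between genotypes in both sexes. Its median was 145 TPM in Ecad and 3.3 TPM in ΔEcad males. In females the median was higher in ΔEcad, at 46.7 TPM against 30.6 TPM in Ecad. Leaving out these 4 libraries together, a choice made after seeing the data, left 0 members called in all 5 comparisons described here. Of all 17970 genes tested there, 0 to 112 were called, depending on the comparison. In bulk tissue, fewer cells of a type and less RNA per cell cannot be told apart, and this holds for each member.

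Sums of skin markers also differed between the groups. The keratinocyte markers Krt5, Krt14, Krt1, Krt10, Trp63 and Dsg3 had a median sum of 3510 TPM (1.23 to 21043) in male and 1.32 TPM (0.09 to 1692) in female Ecad tumours, and of 431 TPM (1.51 to 13860) in male and 5958 TPM (1.67 to 31375) in female ΔEcad tumours. Skeletal muscle markers had medians of 2126, 8.52, 269 and 800 TPM in the same order. Both medians were lowest in the Ecad females, which is the group the female genotype comparison and the Ecad sex comparison share.

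The members spanned a wide range of levels. S100b, a calcium-binding protein of Schwann cells and melanocytes, had the highest median over the 32 tumours, 681 TPM (4.78 to 2770). Lgi4, a secreted protein that Schwann cells need to myelinate, had a median of 401 TPM (11.4 to 1382). Pmp22, a compact myelin protein, followed with 198 TPM (23.3 to 584), and Aqp1, a water channel counted among markers of the neural crest-like melanoma state, with 179 TPM (8.26 to 1310). S100b was abundant in every group, with medians of 641 TPM in male and 752 TPM in female Ecad tumours and of 937 TPM in male and 393 TPM in female ΔEcad tumours. At the other end, Gfra3, the receptor subunit for artemin, had a median of 0.135 TPM and lay at or under 3 counts in 15 of 32 tumours. Sox8 had a median of 0.285 TPM, and Ret and Mag of 0.545 TPM each.

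**Figure D1:**
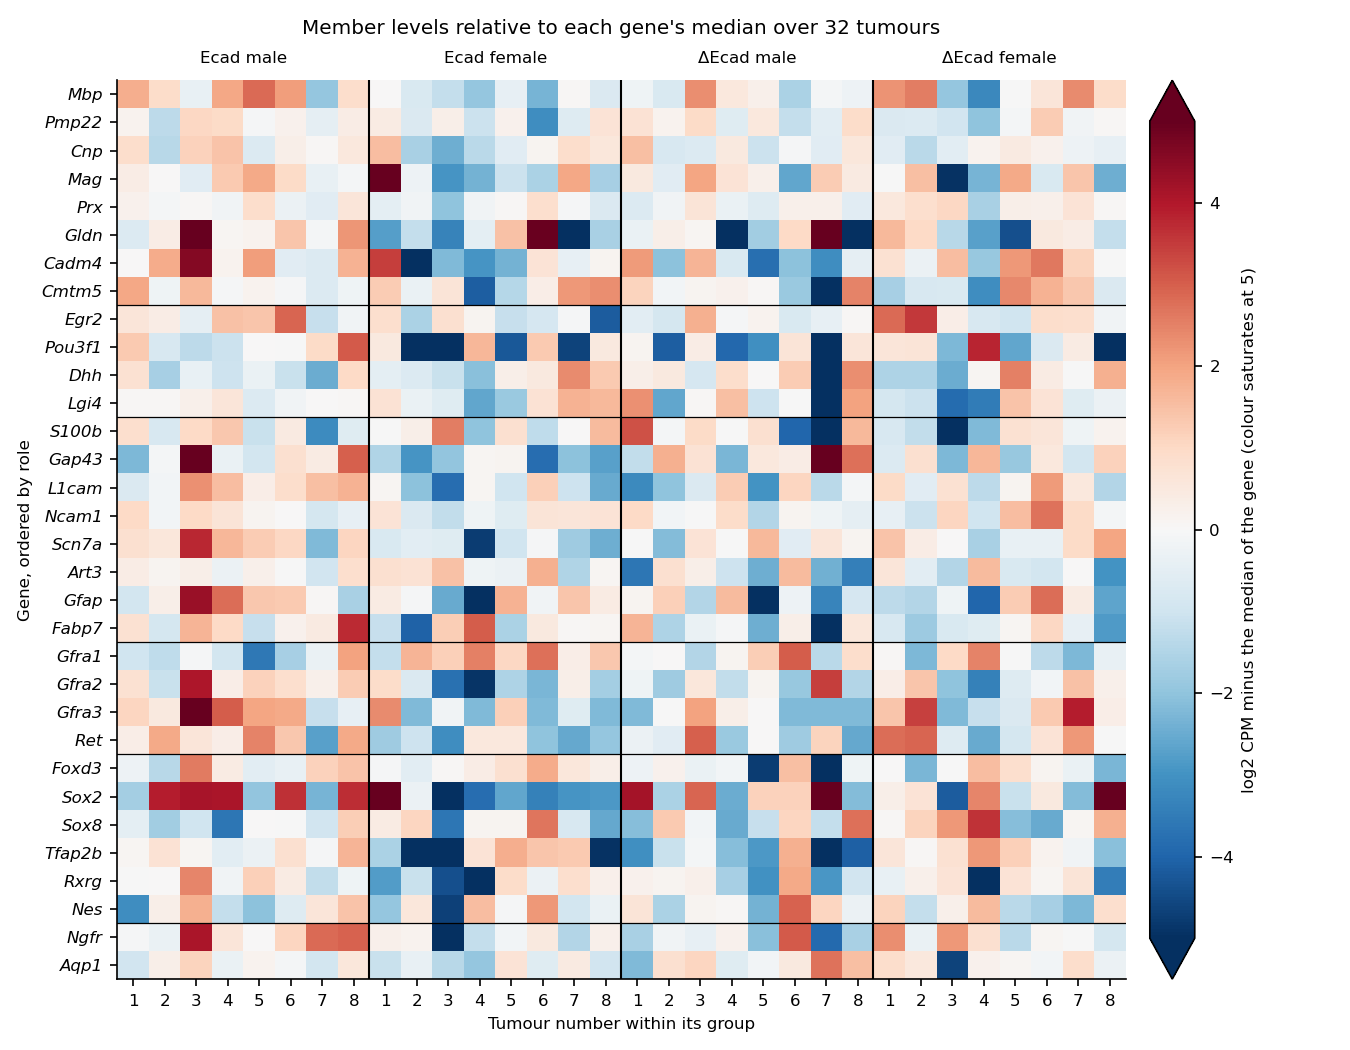
Level of each of the 32 members in each of the 32 tumours, as log2 CPM minus the median of the gene over all tumours, with genes in rows by role and tumours in columns by group (colour scale saturates at 5). In TPM, Ecad male 3 holds the highest level of 9 members. More than 4-fold below their median lie 17 members in Ecad female 3 and 14 in ΔEcad male 7.

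Among the myelin and node proteins, Cnp, a phosphodiesterase of myelinating cells, had a median of 55.8 TPM, Cmtm5 of 88.7 TPM and Cadm4, the adhesion molecule on the Schwann side of the axon contact, of 23.0 TPM. Mbp, the basic protein that compacts myelin, had a median of only 2.25 TPM (0.20 to 18.0), and Prx, the periaxin scaffold of the Schwann cell membrane, of 3.33 TPM (0.62 to 7.69). Mag and Gldn were each carried by single tumours. Mag, the myelin-associated glycoprotein, was at 59.5 TPM in Ecad female 1 and at no more than 2.48 TPM in the other 31 tumours. Gldn, the gliomedin that clusters sodium channels at nodes, was at 210 TPM in ΔEcad male 7, followed by 23.7 TPM in Ecad male 3. Ecad female 1 also held the highest Cnp, 203 TPM, and Sox2 at 55.3 TPM, while its Mbp was 2.69 TPM. Levels of Cnp, Prx, Pou3f1, Lgi4, Dhh, Ncam1, Art3, Gfra1 and Sox8 carry some doubt, since exons of other genes overlap theirs on the opposite strand and whether the counting used the strand is not given in the sources used here. Dhh, L1cam and Foxd3 also overlap an exon of a neighbour on their own strand.

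Of the regulators, Pou3f1 (Oct6), which drives Schwann cells towards myelination, had a median of 35.8 TPM, and Dhh, the hedgehog ligand that Schwann cells send to the nerve sheath, of 44.7 TPM. Egr2, the transcription factor that switches on peripheral myelin genes, had a median of 6.29 TPM (0.24 to 66.5). Markers of immature or non-myelinating Schwann cells other than S100b had medians of 48.1 TPM for Art3, 25.8 TPM for the adhesion molecule Ncam1, 23.3 TPM for the fatty acid carrier Fabp7, 20.3 TPM for the adhesion molecule L1cam, 4.04 TPM for the growth-associated protein Gap43, 1.80 TPM for the filament protein Gfap and 1.73 TPM for Scn7a, a sodium channel of non-myelinating Schwann cells. Gap43 reached 551 TPM in ΔEcad male 7 and 128 TPM in Ecad male 3, against 25.1 TPM in the next tumour. Among the crest factors, Foxd3 had a median of 40.1 TPM, Tfap2b (AP-2 beta) of 24.04 TPM, the filament protein Nes of 15.6 TPM, the retinoid receptor Rxrg of 10.6 TPM and Sox2 of 1.35 TPM. Sox2 was unevenly spread, at 135 TPM in ΔEcad female 8, 96.1 TPM in ΔEcad male 7 and at or under 3 counts in 6 tumours. Ngfr, the low-affinity neurotrophin receptor, had a median of 10.02 TPM (0.10 to 167).

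The promoters of the members were read for binding words of EGR factors (GCGTGGG and GCGGGGG) on both strands, in the 250 bases before each RefSeq start on GRCm38.p6, since Egr2 is a member. Of 32 members, 24 had a promoter in the table, with 38 promoters in all since some have several starts. A word was present in 9 of these 38 promoters, which belong to 8 members (Art3, Dhh, Egr2, Foxd3, L1cam, Prx, Scn7a and Sox2), and in 13.1% of all 32536 promoters. Words of SOX factors (ACAAAG and ACAATG) were present in 6 of the 38, which belong to 5 members (Art3, Cadm4, Cnp, Mag and Sox2), and in 25.0% of all promoters. Printed are those of Scn7a and Egr2, whose levels went with that of Mbp over the tumours, and those of Ngfr and of L1cam and Foxd3, whose levels went with that of Ngfr. Capitals mark an EGR word on either strand. Its first base lies 123 bases before the start in Scn7a, 63 before the most upstream start of Egr2, 91 before the downstream of the L1cam starts, which is the one printed, and 18 before that of Foxd3, and Ngfr holds no match. A match is a description of letters and not a binding site. Scn7a and Egr2 are the only members that went with Mbp and hold a match. Mag, which also went with Mbp, holds none in its promoters, and of the Egr2 starts only the printed one holds a match. The printed promoters thus do not stand for all members of a set.
Scn7a, chr2:66784911-66785160, minus strand: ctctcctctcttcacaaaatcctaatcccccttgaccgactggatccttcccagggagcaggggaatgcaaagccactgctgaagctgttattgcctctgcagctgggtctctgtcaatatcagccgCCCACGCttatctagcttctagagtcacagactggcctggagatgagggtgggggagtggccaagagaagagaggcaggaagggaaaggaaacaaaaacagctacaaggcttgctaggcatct
Egr2, chr10:67535249-67535498, plus strand: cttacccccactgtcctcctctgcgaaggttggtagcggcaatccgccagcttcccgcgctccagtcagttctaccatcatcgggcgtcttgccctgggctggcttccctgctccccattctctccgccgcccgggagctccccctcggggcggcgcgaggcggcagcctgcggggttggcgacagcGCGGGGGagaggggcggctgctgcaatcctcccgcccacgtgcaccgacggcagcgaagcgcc
L1cam, chrX:73880791-73881040, minus strand: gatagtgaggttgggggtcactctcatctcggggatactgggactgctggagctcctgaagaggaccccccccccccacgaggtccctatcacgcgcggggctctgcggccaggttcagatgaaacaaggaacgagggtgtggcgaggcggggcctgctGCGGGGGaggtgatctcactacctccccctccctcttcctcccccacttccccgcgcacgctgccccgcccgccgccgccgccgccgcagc
Foxd3, chr4:99656049-99656298, plus strand: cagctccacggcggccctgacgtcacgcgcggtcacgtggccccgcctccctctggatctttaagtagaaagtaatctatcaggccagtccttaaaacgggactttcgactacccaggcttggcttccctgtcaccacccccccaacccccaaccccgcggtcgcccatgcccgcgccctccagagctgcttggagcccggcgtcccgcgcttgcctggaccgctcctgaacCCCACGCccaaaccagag
Ngfr, chr11:95587699-95587948, minus strand: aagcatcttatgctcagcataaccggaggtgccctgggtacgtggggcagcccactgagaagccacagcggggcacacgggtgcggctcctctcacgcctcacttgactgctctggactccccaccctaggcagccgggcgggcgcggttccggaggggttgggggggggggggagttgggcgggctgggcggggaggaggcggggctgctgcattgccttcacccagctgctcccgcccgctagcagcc

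Ecad male 3 stood apart from the rest. It held the highest level of Cadm4, L1cam, Scn7a, Gfap, Gfra2, Gfra3, Foxd3, Rxrg and Ngfr, and 12 members lay over 4-fold above their median there. Its Gfra3 was at 104 TPM, against at most 2.26 TPM in the other 31 tumours. Its melanocytic markers summed to 30937 TPM, inside the range of the other Ecad males. At the low end, Ecad female 3 was among the lowest 3 tumours for 14 members, including Ngfr at 0.10 TPM. There 17 members lay more than 4-fold below their median, while its S100b of 2770 TPM was the highest of all tumours. This tumour was not among the libraries left out together.

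The comparison of ΔEcad with Ecad tumours asks whether loss of E-cadherin in melanocytes goes with other levels of these genes, and the study ran it in each sex. In females, 0 of 32 members were called by edgeR at an adjusted p under 0.05 with an absolute log2 fold change over 1, against 1.20% of the 17717 genes tested. At an unadjusted p under 0.05, 5 members (15.6%) differed, 4 with a higher level and 1 with a lower level in ΔEcad, against 15.3% of all genes, 11.2% higher and 4.13% lower, so the members stood near the background. DESeq2 on the same model called 4 members, against 7.23% of genes, and limma with voom called 0, against 0.00564% of genes. The median log2 fold change was 0.35 over the members and -0.02 over all genes. The labels do not say that tumours came from separate mice, so p-values measure the spread between these samples.

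Mbp (ENSMUSG00000041607, GRCm38 chromosome 18, 82475146 to 82585637) was at 0.37, 1.36 and 2.69 TPM (lowest, median, highest) in Ecad females, against 0.20, 4.48 and 13.9 TPM in ΔEcad females. In 5 of 8 ΔEcad females Mbp exceeded every Ecad female, and ΔEcad female 4 lay below them all. Such counts of tumours, here and below, were made on TPM. On log2 CPM some of those for Ret, Egr2, L1cam, Ngfr and Gfra1 shift. The log2 fold change was 2.08 (edgeR adjusted p 0.0872, SE 0.67), and 0.02 (unadjusted p 0.978) with the keratinocyte score as a covariate. Ret (ENSMUSG00000030110, chromosome 6, 118151745 to 118197718), the signalling receptor of the GDNF family, was at 0.03, 0.125 and 0.79 TPM in Ecad females, against 0.06, 0.675 and 3.76 TPM in ΔEcad females. In 3 ΔEcad females it exceeded every Ecad female, and the other 5 overlapped them. Its log2 fold change was 2.40 (edgeR adjusted p 0.128, SE 0.85), and 0.42 (unadjusted p 0.628) with the same covariate. Egr2 (ENSMUSG00000037868, chromosome 10, 67535475 to 67542188) was at 0.24, 3.69 and 11.3 TPM in Ecad females, against 2.35, 8.09 and 66.5 TPM in ΔEcad females. The highest values came from ΔEcad female 1 and ΔEcad female 2, the only tumours of that group above all Ecad females in TPM. On log2 CPM, ΔEcad female 6 (3.56) and ΔEcad female 7 (3.55) also lay slightly above the highest Ecad female (3.52). Its log2 fold change was 1.88 (edgeR adjusted p 0.136, SE 0.68), and 0.32 (unadjusted p 0.621) with the covariate. Without ΔEcad female 2 it was 1.19 (unadjusted p 0.072). The score of the Schwann and nerve markers was also used as a covariate. Its list holds Sox10, shared with melanocytic cells, and Fa2h and Mal, which epithelial cells express as well. The score was lowest (-1.59) in ΔEcad male 7, the library with almost no melanocytic RNA, so it does not measure nerve alone. With this score as a covariate instead, the fold was 1.25 for Mbp (edgeR unadjusted p 0.0418). It was 1.87 for Ret (edgeR unadjusted p 0.0395) and 1.26 for Egr2 (edgeR unadjusted p 0.0706).

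Scn7a (ENSMUSG00000034810, chromosome 2, 66673425 to 66784914) was at 0.06, 0.905 and 1.42 TPM in Ecad females, against 0.47, 2.21 and 9.08 TPM in ΔEcad females. It exceeded every Ecad female in 5 ΔEcad females, with overlap in the other 3. Its log2 fold change was 1.71 (edgeR adjusted p 0.15, SE 0.63), and 1.06 (unadjusted p 0.146) with the keratinocyte score as a covariate. For Mag the fold of -3.06 (edgeR adjusted p 0.159, SE 1.15) rested on Ecad female 1 alone, and it was 0.68 without that tumour. Ngfr had a log2 fold change of 1.17 and L1cam of 1.02 in females, neither with an unadjusted p under 0.05.

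Markers of other cell types also differed between the genotypes in females. Of the 6 keratinocyte markers, 5 had an unadjusted p under 0.05, all 6 folds were above 0 and their median log2 fold change was 5.36. All 3 adipocyte markers had an unadjusted p under 0.05 (median 4.07), and the 4 muscle markers had a median of 2.68 with none past it. Of the 10 Schwann and nerve markers outside the member list, 4 were higher at an unadjusted p under 0.05, namely Fa2h at 5.69 (edgeR adjusted p 0.0719, SE 1.72), Cldn19 at 3.00, Mal at 2.87 and Drp2 at 2.00. Fa2h and Mal are expressed in epithelial cells as well. The other 6 lay below 0, from -0.24 for Ncmap to -0.79 for Cdh19, with Sox10, a factor of melanocytic as well as Schwann cells, at -0.35, and the median of the 10 was -0.29. By comparison, 0 of 9 melanocytic markers were past that level, though all 9 folds lay below 0, with a median of -0.84.

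**Figure D2:**
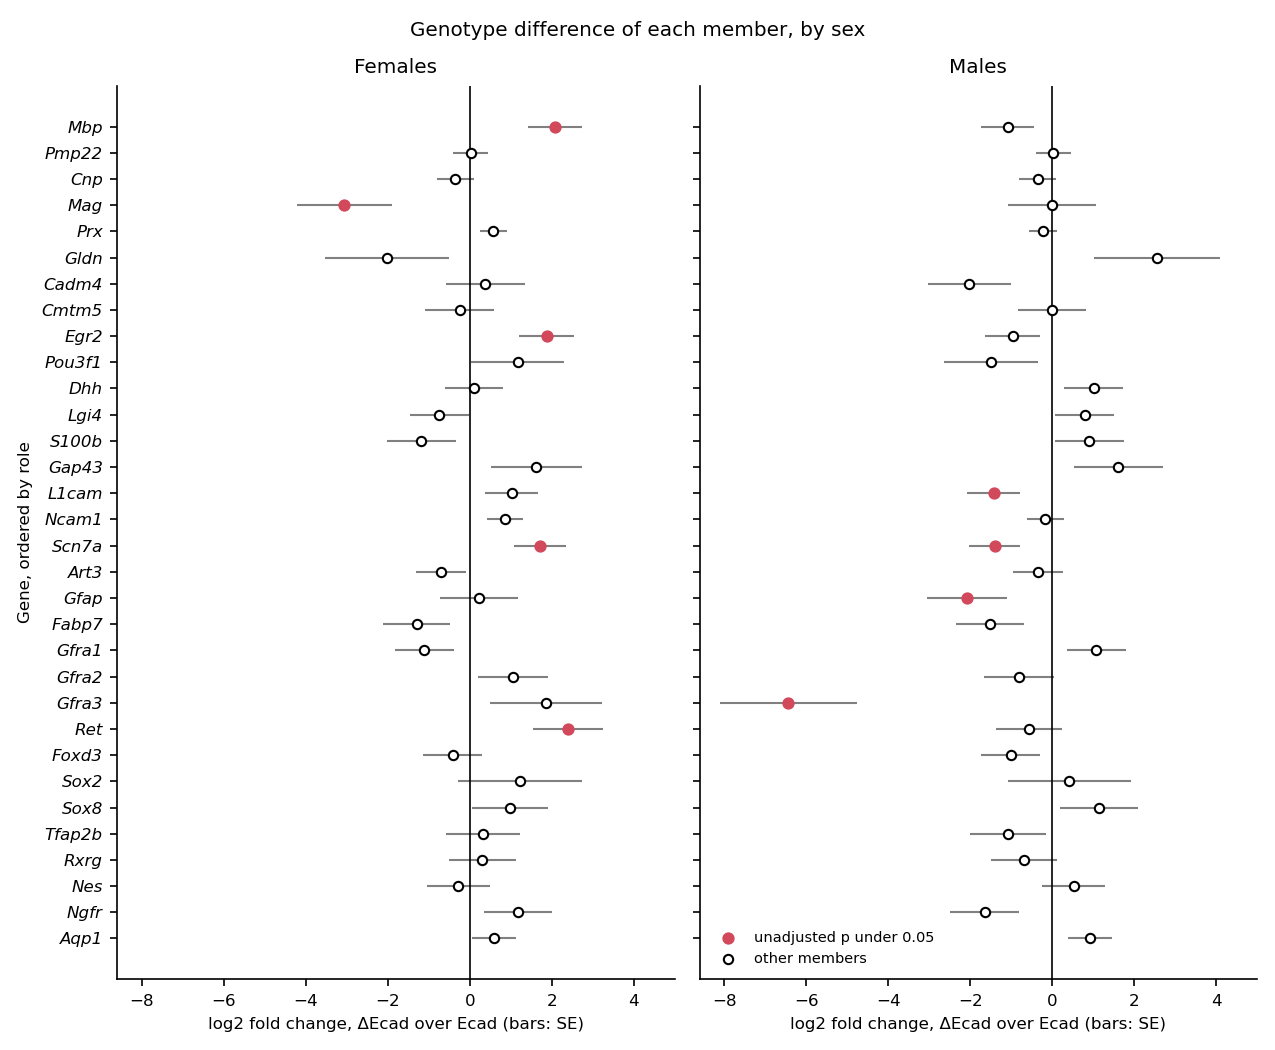
log2 fold change of ΔEcad over Ecad for each of the 32 members, in females (left) and males (right), with bars of 1 standard error and filled points for an unadjusted p under 0.05. In females 21 members lie above 0 and in males 11, and Gfra3 in males, which rests on Ecad male 3, lies farthest from 0 at -6.44.

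In males, 0 of 32 members were called by edgeR, against 0% of all genes, by DESeq2 0 (against 0.119% of genes) and by limma 0. At an unadjusted p under 0.05, 4 members (12.5%) were past the level and all 4 were lower in ΔEcad, against 10.2% of all genes, 3.05% lower and 7.19% higher. The median log2 fold change was -0.35 over the members and 0.11 over all genes, and 21 of 32 folds lay below 0. L1cam (ENSMUSG00000031391, chromosome X, 73853778 to 73896105) was at 12.5, 45 and 96.7 TPM in Ecad males, against 1.03, 10.4 and 56.0 TPM in ΔEcad males. In TPM it lay below every Ecad male in 6 of 8 ΔEcad males. On log2 CPM fewer did, since ΔEcad male 3 (4.92) and ΔEcad male 8 (5.55) were not below the lowest Ecad male (4.91). The log2 fold change was -1.43 (edgeR adjusted p 0.473, SE 0.66), and -1.77 (unadjusted p 0.0156) with the keratinocyte score as a covariate. Its unadjusted p was under 0.05 in 22 of the 32 fits that left out 1 tumour, and rose to 0.0872 without Ecad male 3. Without the 4 libraries its fold was -1.15 (unadjusted p 0.128).

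The other 3 male differences shrank more without Ecad male 3. Scn7a was at 0.36, 3.50 and 23.9 TPM in Ecad males, against 0.27, 1.67 and 6.09 TPM in ΔEcad males, and the fold of -1.40 (edgeR adjusted p 0.459, SE 0.63) was -0.56 without Ecad male 3. Gfap moved from -2.08 (edgeR adjusted p 0.477, SE 0.98) to -1.05 without that tumour. Gfra3 moved from -6.44 (edgeR adjusted p 0.365, SE 1.67) to -1.68. Ngfr (ENSMUSG00000000120, chromosome 11, 95568818 to 95587735) was at 9.53, 18.0 and 167 TPM in Ecad males, against 0.72, 4.39 and 66.9 TPM in ΔEcad males. In TPM it lay below every Ecad male in 6 of 8 ΔEcad males, and its fold of -1.65 did not reach an unadjusted p of 0.05. On log2 CPM, ΔEcad male 2 (3.36), ΔEcad male 4 (3.76) and ΔEcad male 6 (6.63) lay above the lowest Ecad male (3.20). Keratinocyte markers had a median log2 fold change of -1.70 in males, with 0 of 6 at an unadjusted p under 0.05.

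**Figure D3:**
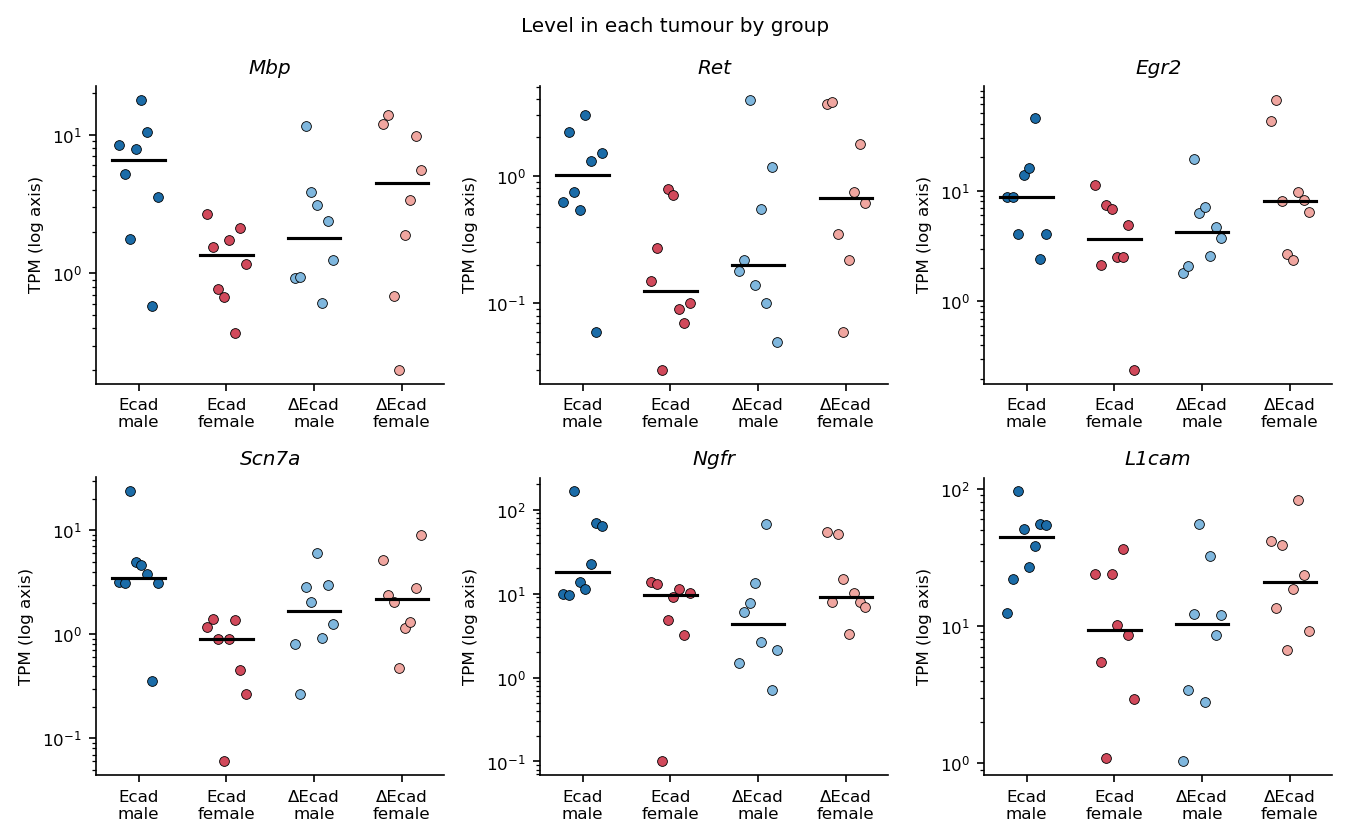
TPM of Mbp, Ret, Egr2, Scn7a, Ngfr and L1cam in each tumour by group (log axis), with a bar at the group median. For Mbp, Ret, Egr2, Scn7a and L1cam the Ecad females have the lowest median of the 4 groups, and the highest Ngfr, Scn7a and L1cam are in Ecad male 3.

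Females were then compared with males within each genotype. In Ecad tumours, edgeR called 0 of 32 members, against 0.0508% of all genes, DESeq2 called 5 (Mbp, Gap43, Scn7a, Gfra2 and Ngfr, all lower in females), against 5.77% of genes, and limma called 2 (Scn7a and Gfra1), against 0.519%. At an unadjusted p under 0.05, 11 members (34.4%) differed, 9 lower and 2 higher in females, against 16.0% of all genes, 10.3% lower and 5.71% higher. The share of members was above that of all genes in the lower direction and close to it in the higher one. The median log2 fold change was -0.48 over the members and 0.05 over all genes, and 23 of 32 folds lay below 0. Without the 4 libraries named above, which include no Ecad tumour but enter the shared estimate of the spread, 10 members were past that level.

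Scn7a left the sexes almost apart. In 7 of 8 Ecad males its level, 3.10 to 23.9 TPM, exceeded that of every Ecad female, whose range was 0.06 to 1.42 TPM, and only Ecad male 7, at 0.36 TPM, overlapped them. The log2 fold change of female over male was -2.78 (edgeR adjusted p 0.0869, SE 0.66), and -2.13 (unadjusted p 0.00759) with the keratinocyte score as a covariate. Mbp exceeded every Ecad female in 6 of 8 Ecad males, where it was at 0.58, 6.57 and 18.0 TPM (lowest, median, highest), with a log2 fold change of -2.27 (edgeR adjusted p 0.108, SE 0.67). Ret, at 0.06, 1.02 and 3.01 TPM in Ecad males, exceeded every Ecad female in 4 of them, with a log2 fold change of -2.20 (edgeR adjusted p 0.186, SE 0.84). With the keratinocyte score as a covariate the fold of Mbp was -0.24 and that of Ret -0.37, with unadjusted p of 0.719 and 0.668.

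Ngfr was at 0.10, 9.63 and 13.8 TPM in Ecad females, and 4 of 8 Ecad males exceeded them all. Its log2 fold change was -2.52 (edgeR adjusted p 0.144, SE 0.86), -1.87 without Ecad male 3, and -3.08 (unadjusted p 0.00281) with the keratinocyte score as a covariate. L1cam was at 1.09, 9.40 and 36.8 TPM in Ecad females, and 5 Ecad males exceeded them all. Its log2 fold change was -1.66 (edgeR adjusted p 0.204, SE 0.66), and -2.33 (unadjusted p 0.00676) with the covariate. Keratinocyte markers themselves differed between these 2 groups, so their part and that of sex cannot be told apart, for these genes or for Mbp and Ret. With the score of the Schwann and nerve markers as a covariate instead, the fold was -2.80 for Ngfr and -2.11 for L1cam. It was -1.37 for Mbp (edgeR unadjusted p 0.0299) and -1.69 for Ret (edgeR unadjusted p 0.0608).

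The remaining Ecad sex differences were more dependent on 1 tumour. Gap43 had a log2 fold change of -3.86 (edgeR adjusted p 0.116, SE 1.20), Gfra2, the neurturin receptor, of -2.58 (edgeR adjusted p 0.15, SE 0.90) and Gfra3 of -6.08 (edgeR adjusted p 0.0939, SE 1.63). Without Ecad male 3 these were -2.23, -1.44 and -1.32. Mag, at 2.86 (edgeR adjusted p 0.206, SE 1.14), was at -0.89 without Ecad female 1. Gfra1, the GDNF receptor, ran the other way, at 4.24, 23.5 and 153 TPM in Ecad males and 23.0, 97.0 and 299 TPM in Ecad females. Only 3 Ecad females exceeded every Ecad male, and its log2 fold change was 1.67 (edgeR adjusted p 0.248, SE 0.73), or 0.59 (unadjusted p 0.399) with the keratinocyte score as a covariate. It was 2.56 without Ecad male 8, and its unadjusted p was 0.0699 without Ecad female 6. Of the 6 keratinocyte markers, 5 were lower in Ecad females at an unadjusted p under 0.05, with a median log2 fold change of -4.85.

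The same comparison was made in ΔEcad tumours. By edgeR 0 of 32 were called, against 0.0395% of all genes, by DESeq2 0 (against 0.135%) and by limma 0 (against 0.0339%). At an unadjusted p under 0.05, 3 members (9.38%) were past the level, 1 higher and 2 lower in females, against 8.81% of all genes, 3.32% higher and 5.49% lower. Of these, Gap43 at -3.84 (edgeR adjusted p 0.484, SE 1.19) and Gldn at -5.01 (edgeR adjusted p 0.484, SE 1.73) rested on ΔEcad male 7, the library with almost no melanocytic RNA, and they were at -0.77 and 0.51 without it. Egr2, at 1.82, 4.21 and 19.4 TPM in ΔEcad males, had a log2 fold change of 1.48 (edgeR adjusted p 0.551, SE 0.67), and of 0.80 without ΔEcad female 2. With the keratinocyte score as a covariate it was 0.73 (unadjusted p 0.219). Keratinocyte, muscle and adipocyte markers had median log2 fold changes of 1.87, 2.69 and 2.49 in this comparison. Without the 4 libraries, 0 members had an unadjusted p under 0.05.

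The interaction of genotype and sex tests whether the genotype difference itself differed between females and males. edgeR called 0 of 32 members, against 0% of all genes, with the smallest adjusted p of a member at 0.0526. DESeq2 called 3 (Mbp, Egr2 and Scn7a), against 6.91% of genes, and limma 0. At an unadjusted p under 0.05, 9 members (28.1%) were past the level, 7 with a higher and 2 with a lower difference in females, against 17.7% of all genes, 10.7% higher and 6.94% lower. The median interaction was 0.70 over the members and -0.16 over all genes. For Mbp it was 3.16 (edgeR adjusted p 0.0658, SE 0.93), for Scn7a 3.11 (edgeR adjusted p 0.0614, SE 0.89), for Ret 2.96 (edgeR adjusted p 0.167, SE 1.16) and for Egr2 2.84 (edgeR adjusted p 0.0984, SE 0.95). For Ngfr it was 2.82 (edgeR adjusted p 0.193, SE 1.17) and for L1cam 2.45 (edgeR adjusted p 0.148, SE 0.92). The Ngfr value was 4.31 without ΔEcad male 6 and 2.17 (unadjusted p 0.0674) without Ecad male 3. Without the 4 libraries it was 1.49 (unadjusted p 0.21), and that of L1cam was 2.07 (unadjusted p 0.0527).

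With the score of the Schwann and nerve markers as a covariate the interaction was 1.45 for Mbp, 2.04 for Ret and 1.63 for Egr2. It was 3.36 for Ngfr and 3.21 for L1cam. The keratinocyte score, which differed between the groups and so cannot be told apart from them, was used in the same way. With it the interaction was 0.16 for Mbp, 0.35 for Ret and 0.47 for Egr2, but 3.62 (unadjusted p 0.00962) for Ngfr and 3.54 (unadjusted p 0.00549) for L1cam. Scn7a stood between them, at 2.16 (unadjusted p 0.0481). Gfra3, at 8.30 (edgeR adjusted p 0.0526, SE 2.13), was at 3.54 without Ecad male 3, and Gldn, at -4.59 (edgeR adjusted p 0.26, SE 2.16), was at 0.93 without ΔEcad male 7. Gfra1 had an interaction of -2.19 (edgeR adjusted p 0.253, SE 1.02), and of -1.32 (unadjusted p 0.168) with the covariate. Leaving out single tumours gave -3.08 (without Ecad male 8) to -1.38 (without ΔEcad male 6, unadjusted p 0.16), and 17 of 32 fits had an unadjusted p under 0.05. All 6 keratinocyte markers had an unadjusted p under 0.05 for the interaction, with a median of 7.08. Leaving out single tumours gave 0 to 5 members called by edgeR, with 5 (Mbp, Egr2, Scn7a, Gfra3 and Ret) without ΔEcad male 3. The share of all genes called in these fits is not given here. In the full fit the smallest adjusted p of any gene was 0.0509, and RLE factors called 1.13% of all genes. These counts are therefore not read as a result about the members.

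The ligands and partner receptors of these pathways were followed as 15 further genes, of which 14 were tested and persephin (Pspn) did not pass the filter. In females, 7 of them had higher levels in ΔEcad and 0 lower, counted where the unadjusted p was under 0.05, against 11.2% higher and 4.13% lower of all genes. By edgeR 2 were called, against 1.20% of all genes, namely Nrg1, the neuregulin that axons present to Schwann cells, at a log2 fold change of 4.40 (adjusted p 0.0494, SE 1.13), and the neurotrophin Ntf5, at 4.22 (adjusted p 0.0497, SE 1.10). Ntf3 was at 3.61, the GDNF family ligand Nrtn at 2.69, Bdnf at 2.24, Ntrk2 at 2.15 and Erbb2 at 1.34, none with an edgeR adjusted p under 0.05. Both calls lay at the threshold. DESeq2 called both genes (adjusted p 0.000284 and 0.000557), while limma gave adjusted p of 0.179 and 0.172, and edgeR without the 4 libraries 0.0803 and 0.0714. Of 32 fits that left out 1 tumour, 12 called Nrg1 and 13 called Ntf5. These factors are also made in skin, and with the keratinocyte score as a covariate the fold was 4.07 (unadjusted p 0.000918, edgeR adjusted p 0.171) for Nrg1 and 1.48 (unadjusted p 0.0809, edgeR adjusted p 0.642) for Ntf5.

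In males 1 of the 14 genes passed that level, Erbb2, which was lower in ΔEcad at -0.80, against 3.05% of all genes lower. In Ecad tumours 5 were lower in females, Ntf5 at -3.89, Ntf3 at -3.71, Artn, the ligand of Gfra3, at -2.88, Nrg1 at -2.88 and Erbb2 at -1.12, against 10.3% of all genes. In ΔEcad tumours Nrg1 at 3.56 and Erbb2 at 1.02 were higher in females and Artn at -2.77 lower, against 3.32% of all genes higher and 5.49% lower. For the interaction, Nrg1 at 6.44, Ntf5 at 5.70, Ntf3 at 5.32, Nrtn at 3.15 and Erbb2 at 2.14 were past that level, with a larger difference in females, and Sort1 at -1.66 with a smaller one, against 10.7% and 6.94% of all genes. The smallest edgeR adjusted p among them was 0.0526, shared by Nrg1, Ntf5 and Erbb2.

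Co-variation over the 32 tumours was then used to ask which members move together. Ngfr served as the marker of the crest-like state and Mlana as that of melanocytic content, and Mbp, the myelin member with the smallest p in females, was added as a further anchor after seeing the data. Pearson r and Spearman rho of log2 CPM were computed with two-sided permutation p (100000 permutations, smallest possible 1e-05). They were adjusted within a family of 95 pairs for Ngfr and Mlana, and over 31 pairs for Mbp. A member was counted where both adjusted p were under 0.05.

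With Mbp, 7 members passed, 6 of them in the same direction. Ret had r 0.75 and rho 0.72 (permutation adjusted p 0.000155 and 6.2e-05), and Egr2 had r 0.66 and rho 0.72 (permutation adjusted p 0.00031 and 6.2e-05). Gfra2 (r 0.61, rho 0.72), Scn7a (r 0.58, rho 0.67), Mag (r 0.56, rho 0.67) and Gfra3 (r 0.56, rho 0.74) passed as well. Gfra1 ran opposite to Mbp, with r -0.78 and rho -0.75 (permutation adjusted p 0.000155 and 6.2e-05). Leaving out Ecad male 5 and ΔEcad female 4, whose Mbp lay farthest from the median, r was 0.71 for Ret, 0.67 for Egr2 and -0.73 for Gfra1, and all 7 still passed. Within groups, with values centred on the group means, r was 0.69 for Ret, 0.60 for Egr2 and -0.72 for Gfra1, which passed, and 0.44 for Scn7a and 0.47 for Gfra3, which did not. Nes, at -0.45, passed when centred but not over all tumours. Other myelin proteins were less tied to Mbp: Pmp22 had r 0.44, Prx 0.44, Gldn 0.09 and Cnp 0.05, none of which passed on both measures.

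With Ngfr, L1cam had r 0.71 and rho 0.70 (permutation adjusted p 0.000317 and 0.00127), and Foxd3 had r 0.55 and rho 0.51 (permutation adjusted p 0.0267 and 0.0331). Leaving out Ecad male 3 and Ecad female 3, whose Ngfr lay farthest from the median, r was 0.59 for L1cam and 0.65 for Foxd3. Centred on group means, r was 0.61 and 0.58, and both still passed. Of the promoters printed above, those of L1cam and Foxd3 hold an EGR word, as do those of Scn7a and Egr2 on the Mbp side. Mag, also on the Mbp side, holds none in its promoters. The printed Egr2 start is the only start of that gene with a match, so its match was set by that choice. These matches are not read as support for the co-variation. Tfap2b (r 0.57), Nes (r 0.54), Pou3f1 (r 0.53) and Rxrg (r 0.47) passed on r but not on rho, and Art3 on rho (0.48) but not on r (0.33). Without the 2 farthest tumours Art3 passed on both (r 0.58, rho 0.59). Ngfr and Mbp had r -0.01, Ngfr and Ret r 0.16, and Mbp and L1cam r 0.16. The study's neural crest-like signature holds Ngfr, L1cam, Gfra2 and Aqp1 among the members, so Ngfr and L1cam are a pair from 1 signature. The others did not pass with Ngfr, with r 0.22 for Gfra2, which passed with Mbp, and r -0.05 for Aqp1.

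With Mlana, Fabp7 (r 0.65, rho 0.48) and Gfra2 (r -0.49, rho -0.48) passed. Without ΔEcad female 8 and ΔEcad male 7 neither passed. There r was 0.24 for Fabp7, and for Gfra2 r was -0.40 and rho -0.44, close to the values over all tumours. Foxd3 had r 0.74 with Mlana but rho 0.31, and r fell to 0.10 without those tumours, so this value rests on them.

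**Figure D4:**
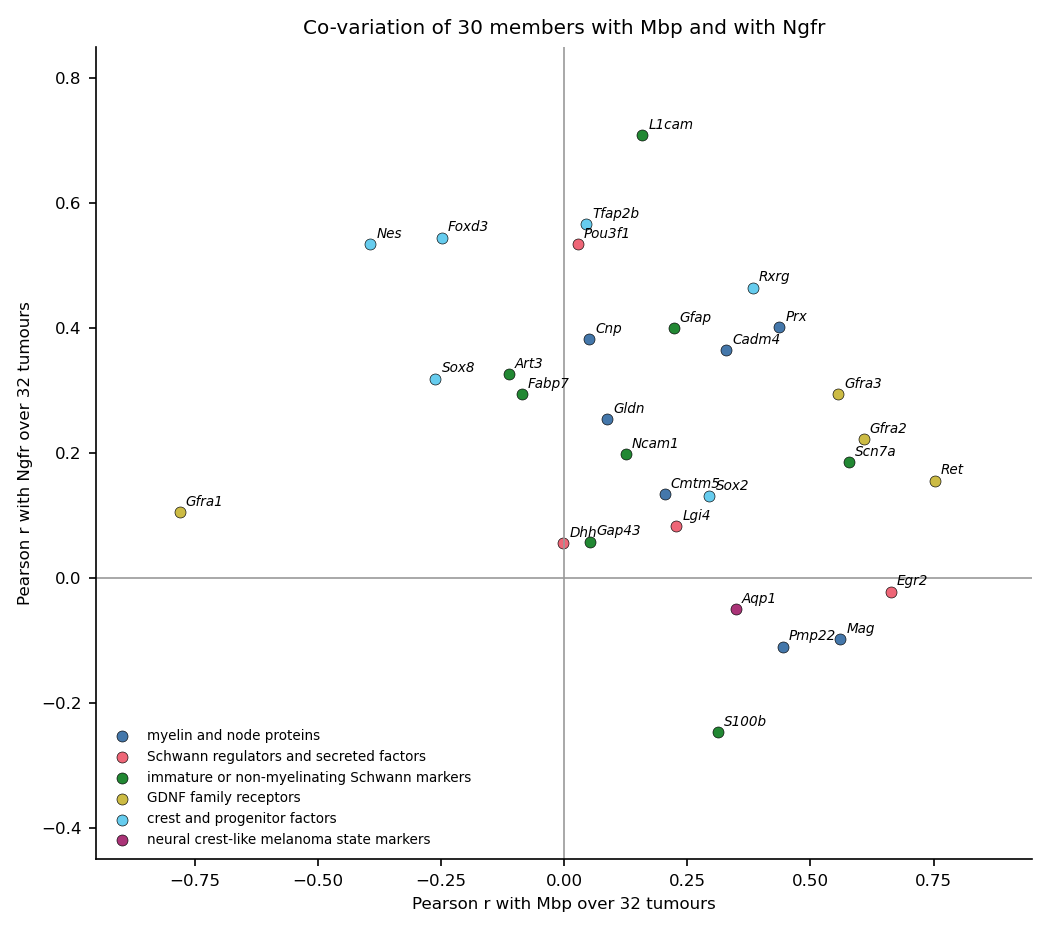
Pearson r of each of 30 members with Mbp (horizontal axis) and with Ngfr (vertical axis) over 32 tumours, coloured by role. Ret (0.75) and Egr2 (0.66) lie farthest right and near 0 on the vertical axis, L1cam (0.71) lies highest, and Gfra1 (-0.78) lies far left.

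Mbp was then set against markers of other cell types. Relations with marker scores, the mean log2 CPM of each list, were added after seeing the data, and adjusted over 50 pairs. Mbp had r 0.78 and rho 0.82 with the keratinocyte score (permutation adjusted p 0.00025 for both), r 0.68 with the Schwann and nerve score, r 0.64 with the adipocyte score and r 0.58 with the muscle score. Mbp also had r 0.57 with the macrophage score (rho 0.64). The Mbp locus makes golli transcripts too, which immune cells express, and the counts are per gene, so the part of these transcripts was not tested. Ngfr had r 0.04 with the keratinocyte score, 0.25 with the muscle score and 0.46 with the melanocytic score (permutation adjusted p 0.0679).

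Keratinocyte scores were also split at 0, and values were taken within each part, as a description. The cut is not a clear break, since ΔEcad female 5 (-0.88), ΔEcad male 4 (-0.39) and ΔEcad male 6 (1.38) lie near it. Of the 13 tumours with a score below 0, 6 were Ecad females, 3 from each sex of ΔEcad and 1 an Ecad male. In the 19 tumours with a score above 0, r with the score was 0.83 for Mbp, 0.77 for Egr2 and 0.71 for Ret, against -0.11 for Ngfr and 0.11 for L1cam. In the 13 below 0 it was 0.66 for Mbp, -0.01 for Egr2 and -0.01 for Ret. The r of Mbp with Ret was 0.83 in the 19 tumours and 0.09 in the 13, that of Mbp with Egr2 0.77 and 0.10, and that of Ngfr with L1cam 0.83 and 0.40. In the 13, Ret had a median log2 CPM of -1.69 (-2.54 to 1.30), with its highest value in ΔEcad male 7. At such low counts a relation of Ret with Mbp could go unseen. Egr2 is known outside nerves as well, in hair follicles and immune cells, and its part from those sources was not tested.

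**Figure D5:**
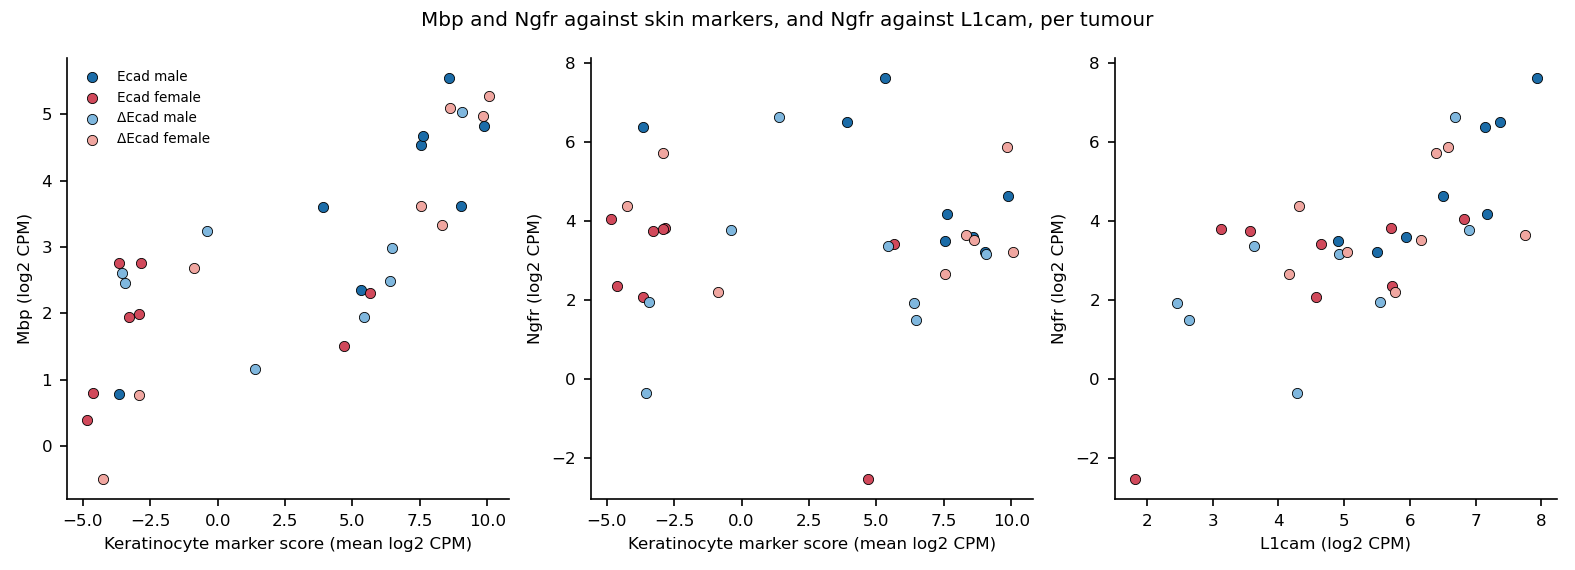
Mbp (left) and Ngfr (middle) against the keratinocyte marker score, and Ngfr against L1cam (right), all as log2 CPM, 1 point per tumour, coloured by group. Mbp rises with the score (r 0.78), Ngfr does not follow it (r 0.04), and Ngfr and L1cam rise together (r 0.71).

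Pairs of members were also described without a test. Over 496 pairs the median r was 0.15 (from -0.78 to 0.80), and within the myelin and node proteins it was 0.28. The highest were Cmtm5 with Lgi4 at 0.80, Gfap with Rxrg at 0.76, Mbp with Ret at 0.75, Fabp7 with Foxd3 at 0.74 and L1cam with Ngfr at 0.71. The lowest was Mbp with Gfra1 at -0.78. Of all tested genes, those most like Ngfr over the 32 tumours were Sema4f (r 0.79), Mmp17 (0.74), Tubb2a (0.72), Kcna6 (0.72), L1cam (0.71) and Tagln2 (0.70). Those most like Prx were Shox2 (0.76), Rnf150 (0.76), Calhm5 (0.74), Cmah (0.73), Tsku (0.73) and Angpt4 (0.73), none of them a myelin protein.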

How the data were processed

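RNA of 32 melanomas was measured by sequencing. Per the labels and the study's methods, the authors made stranded polyA paired-end libraries, mapped them with STAR to mm10 (GRCm38.p5) with GENCODE M13 after FastQC 0.11.5, and deposited raw counts per gene. They also deposited TPM, which scale for gene length and total. Batch correction is described where applicable, without saying whether it was used for these tumours, and whether the counting used the strand is not given in the sources used here. For 996 genes with high counts, count and TPM gave 1 length per gene within 0.0698%, so the files hold 1 set of values.

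Members and gene lists were chosen with earlier results of these data known, and the rule for named genes was written with them. A member gets its fold change where its unadjusted p is under 0.05, at most 10 members per comparison. Some genes of the marker and pathway lists, and the pairs of 1 of them with the members, are not reported here, although they stayed in the fits and adjustments. Groups came from the labels. Counts were fitted with edgeR 4.0.16 (glmQLFit with robust estimation and two-sided glmQLFTest, TMM factors, filterByExpr) in 1 model of 32 tumours with a coefficient per group, which kept 17717 genes, all 32 members included (common dispersion 0.624). Calls needed a Benjamini-Hochberg adjusted p under 0.05 over all tested genes and an absolute log2 fold change over 1. log2 CPM used a prior count of 1. On counts simulated for the female comparison over 17480 genes, edgeR called 91.2% of genes with a true log2 change of 4, 63.2% of genes with one of 2, and 4 of 17280 genes with none. Correlations used two-sided permutation tests. Alternatives were DESeq2 1.42.0, limma 3.58.1 with voom, RLE factors, no filter, only the groups compared, marker scores as covariates, the tumour number as a block and each tumour left out. The highest correlation between tumours was 0.979, and no library was counted as a duplicate. A 4-library exclusion, Mbp as an anchor, the marker-score correlations and the split by keratinocyte score were added after seeing the data. Symbols and positions follow GENCODE on GRCm38, and 224 of 50600 identifiers had no symbol. A count of 0 was read as up to 3 counts, a limit for counting error alone. R 4.3.3 and Python 3.11.15 were used.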

Additional observations from a re-analysis of the deposited data

Results flagged for a closer look

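Within each group of 8 tumours, the highest and lowest log2 CPM of each member was compared with its nearest neighbour, and 15 of 128 sets had a gap above Dixon's critical value as a share of the whole range, where chance gives about 1 in 20. ΔEcad male 7 had 5 of them, with Gldn at 8.22 and Gfra2 at 5.42 on the high side and Cmtm5 at -5.19, Pou3f1 at -3.74 and Dhh at 0.36 on the low side. Its melanocytic markers summed to 19.1 TPM. Ecad male 3 was far above its group for Gfra3 at 6.16 and Gfra2 at 6.02. ΔEcad female 3 was far below its group for S100b at 1.08 and Aqp1 at 2.68, and its endothelial markers summed to 0.19 TPM. Single members stood apart in other tumours. Sox2 was high in Ecad female 1 at 5.09, and Egr2 was high in ΔEcad male 3 at 4.48. Pmp22 was low in Ecad female 6 at 4.53, Prx in ΔEcad female 4 at 0.99, Ret in Ecad male 7 at -2.54 and Ngfr in Ecad female 3 at -2.54.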

How the results depend on the processing

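edgeR called 0 members in each comparison. DESeq2 called 4 in females, 5 between the sexes in Ecad and 3 for the interaction, limma called 2 between the sexes in Ecad, and RLE factors gave 1 (Gfra3) for the interaction. Leaving out each tumour gave 0 to 1 in females (Mbp without ΔEcad female 4) and 0 to 5 for the interaction, where 5 were called without ΔEcad male 3, 3 without Ecad male 7, ΔEcad female 3, ΔEcad female 4 or ΔEcad female 5, and 1 without Ecad male 8, Ecad female 5 or ΔEcad female 8. The share of all genes called in the fits without 1 tumour is not given here, so these counts are not read as a result about the members. The cause of these differences was not tested. Counts over all genes also depended on the tool: DESeq2 called 1281, 21, 1023, 24 and 1225 genes in females, in males, by sex in Ecad, by sex in ΔEcad and for the interaction, against 213, 0, 9, 7 and 0 by edgeR, limma called 1, 0, 92, 6 and 0, and RLE factors gave 322 in females and 201 for the interaction. Without the 4 libraries, 0 members were called, against 112, 0, 12, 8 and 0 of 17970 genes tested. Of the members, 5, 3, 10, 0 and 8 had an unadjusted p under 0.05, against 2744, 1428, 3165, 948 and 3178 of all genes.

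Of 268 alternative values for 31 member fold changes, 255 kept their direction. The 13 reversed were all of Mag or Gldn, each carried by 1 tumour. Mag in females was 0.019 by limma and 0.68 by DESeq2, and between the sexes in Ecad -0.58 with the replicate block, -0.98 by limma and -0.88 by DESeq2. Gldn between the sexes in ΔEcad was 0.48 with the Schwann and nerve score as covariate, 1.00 by limma and 0.54 by DESeq2. Its interaction was 3.57 with the Schwann and nerve score, 0.74 with the keratinocyte score, 0.93 with the replicate block, 2.91 by limma and 1.87 by DESeq2.

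Members co-varying with Mbp numbered 7, with 6 when centred on group means (5 of the 7, and Nes), 6 on the log2(TPM + 1) scale and 10 without the 4 libraries. Leaving out each tumour gave 7 to 8. With Mlana the count was 2, and 1 when centred on group means, 1 on the log2(TPM + 1) scale, 0 without the 2 farthest tumours and 0 without the 4 libraries. Leaving out each tumour gave 0 to 2, with 0 in 16 of 32 fits. With Ngfr it was 2, and 1 without the 4 libraries. Leaving out each tumour gave 1 to 3, with 1 in 6 fits.

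The labels give the 4 groups the same tumour numbers, but of 8 pairs between any 2 groups 1 to 4 correlated over 0.1, and 1 of 32 tumours correlated best with its own number, so the numbers were not taken to pair the tumours. With the replicate block edgeR called 0 members in each comparison. Members with few counts, such as Gfra3, limit what this depth can show.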
